A study of Homo sapiens with 11 samples.

Results

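Chromatin immunoprecipitation with an antibody specific to mH2A1.1 gave a list of 30687 peaks, each made of bins of 3000 bp, and 7015 of them (22.9%) were single bins inside genes that the total mH2A1 antibody did not share. They were selected on the peak lists alone, in 4 steps. A peak had to be 3000 bp wide (18518 of 30687), to overlap no peak of total mH2A1 (15042 left), to lie outside the 1 kb either side of the transcription start site (TSS) of every protein-coding gene, taken as its outermost annotated start, which removed 1556, and to have its midpoint between the annotated start and end of a protein-coding gene, which removed 6471 between genes. The 7015 peaks covered 21045000 bp and lay in 4492 of 20033 protein-coding genes of GENCODE release 44 (GRCh38). Width, absence from the mH2A1 list and place inside a gene are therefore properties of the selection and not findings.

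The peaks came from untreated MDA-MB-231 cells, a triple-negative human breast cancer line grown from a pleural effusion, with 1 library per antibody and 1 input library. The custom polyclonal antibody recognises the splice isoform mH2A1.1, and the commercial antibody total mH2A1, that is both isoforms. The paper reports a lower affinity of the commercial antibody for tagged mH2A1.1, lists fewer mapped reads for it and describes both datasets as highly similar. The part of affinity and depth in the absence of an mH2A1 peak was not tested. RNA of the same line was sequenced from 2 libraries labelled wild type (WT), which received transfection reagent without siRNA, and 2 labelled mH2A1.1 knockdown (KD), which received siRNA against mH2A1.1 at 11 nM for 3 days. WT is therefore not a non-targeting siRNA control, and the labels do not say whether the replicates were separate cultures, so p-values measure only the spread between these libraries.

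MacroH2A1 replaces canonical H2A in part of the nucleosomes and carries a large macrodomain outside the nucleosome core. Alternative splicing of a single gene gives mH2A1.1, whose macrodomain binds ADP-ribose and with it PARP1, and mH2A1.2, which does not bind it. Both are known from silent chromatin such as the inactive X chromosome, and mH2A1.1 has also been placed at active promoters and enhancers, many of which lie in introns.

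Windows of 6 peaks show the range of sequence under the signal, all from GRCh38. The first 2 are CpG-poor intronic peaks from genes with 12 peaks each, shown because each holds the AP-1 motif TGACTCA on the plus strand, which is in capitals and lies within 562 bp of the midpoint of the peak. They are from RUNX1 (chr21:34936104-34936204, peak 34935001 to 34938000) and CAMTA1 (chr1:7014889-7014989, peak 7014001 to 7017000).
RUNX1: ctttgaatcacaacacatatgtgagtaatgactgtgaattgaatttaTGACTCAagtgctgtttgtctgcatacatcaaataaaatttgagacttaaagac
CAMTA1: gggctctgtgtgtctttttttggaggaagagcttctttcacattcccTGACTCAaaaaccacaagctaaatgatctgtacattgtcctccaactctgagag

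The other 4 windows are the 100 bases before an internal start site of a coding transcript in CpG-dense peaks, printed along the gene's strand with each CG in capitals, and contain no annotated exon. They are from RUNX1 (chr21:34889791-34889890, minus strand), MGLL (chr3:127823272-127823371, minus strand), SMAD3 (chr15:67065502-67065601, plus strand) and CAV2 (chr7:116499638-116499737, plus strand). They hold 8, 19, 12 and 16 CG dinucleotides at a GC content of 78, 89, 75 and 84%. These 4 genes were taken from the named genes after their CpG content was seen.
RUNX1: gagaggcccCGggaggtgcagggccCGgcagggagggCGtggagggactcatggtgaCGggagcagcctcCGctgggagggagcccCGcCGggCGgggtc
MGLL: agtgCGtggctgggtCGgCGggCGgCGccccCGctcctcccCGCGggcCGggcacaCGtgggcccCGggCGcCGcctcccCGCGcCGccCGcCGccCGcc
SMAD3: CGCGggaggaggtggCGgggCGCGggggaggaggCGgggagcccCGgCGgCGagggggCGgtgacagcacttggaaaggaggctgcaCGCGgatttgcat
CAV2: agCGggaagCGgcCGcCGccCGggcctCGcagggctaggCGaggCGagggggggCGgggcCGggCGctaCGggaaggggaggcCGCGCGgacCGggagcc

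The RNA libraries held 9794674 and 7856892 counted reads in WT and 5584962 and 2309549 in KD. KD replicate 2, the shallowest, held 30, 0 and 0 reads on chromosomes 21, 22 and X, where the other libraries held 44311 or more per chromosome, so genes of these chromosomes were left out of the test. The counts of MACROH2A1, which pool both isoforms and so cannot check an isoform-specific knockdown, were 373 and 381 CPM (counts scaled to the library total) in WT and 259 and 275 in KD, with a log2 fold change of −0.44 ± 0.17 in the TMM-normalised edgeR test (SE, adjusted p = 0.205). VIM, an intermediate filament gene of mesenchymal cells, had 2247 to 4330 CPM, and ESR1, the oestrogen receptor of luminal cells, had no count in any of the 4 libraries. Other luminal and epithelial genes were detected, with 16.8 to 22.5 CPM for GATA3, 19.3 to 22.9 for EPCAM and 0.358 to 2.42 for CDH1. The CPM of host genes given further on are TMM-normalised over the chromosomes tested.

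In both lists no pair of peaks was closer than 9000 bp, and 4563 neighbouring pairs of mH2A1.1 peaks were exactly that far apart. A peak of several bins may therefore hold bins without signal of their own, and a single bin here is one with no other called bin closer than 9000 bp. The gap to the next mH2A1.1 peak was 21000 bp at the median, with quartiles of 12000 and 42000 bp. The gap to the nearest peak of total mH2A1 was 24000 bp at the median, against 69000 bp for bins in genes without a peak. Of the 7015 peaks, 586 (8.35%) lay in the bin beside an mH2A1 peak and 536 more were 1 bin away. Just inside the limit of the TSS zone, a peak in C11orf24 (chr11:68268001-68271000) lay 1001 bp from a TSS, and just outside it a peak in ACER2 (chr9:19410001-19413000) lay 992 bp from one. On the other 2 limits of the selection, 2459 mH2A1.1 peaks were 2 bins wide, and 1240 single-bin peaks in genes coincided with an mH2A1 peak.

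The midpoint of 91.5% of the peaks (95% exact binomial interval 90.8 to 92.1%) was intronic. The rest lay in 3′ UTRs (3.22%), coding exons (2.89%), exons of non-coding transcripts (1.87%) and 5′ UTRs (0.527%). For comparison, 416846 bins of the same grid were eligible, that is in a protein-coding gene, outside the TSS zones and without unknown bases, and 92.5% of them were intronic, 3.17% in 3′ UTRs, 2.43% in coding exons and 0.275% in 5′ UTRs. The peaks thus stood near the makeup of genes, with 5′ UTRs and coding exons above their share of eligible bins and introns slightly below. The intron that follows the first exon of the canonical transcript held 21.1% of the midpoints and 19.3% of eligible bins. Some exon sequence was present in 37.9% of the peaks and 33.3% of eligible bins. All these comparisons between classes of bins are descriptions, since the peaks are from 1 library, and the intervals cover counting error only.

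The peaks were spread along the length of their genes. In hosts of 100 kb or more, each of 10 equal stretches from start to end held between 9.18 and 11.1% of 4750 placements, against 9.09 to 10.1% of eligible bins. Counted once per host, a midpoint was 59934 bp from the host TSS at the median, and 75963 bp for eligible bins. A distance of 10 to 30 kb held 21.8% of the placements and 17.7% of eligible bins, and a distance over 100 kb held 34.6 and 42.5%. The farthest peak from its TSS was in DMD, the dystrophin gene (chrX:31248001-31251000), at 2090109 bp. Across chromosomes 1 to 22 and X the number of peaks per 1000 eligible bins went from 10.2 on X and 11.3 on 13 to 28.6 on 22.

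GC content set these bins apart from other bins of genes. Median GC was 44.9% (10 and 90% quantiles 39.7 and 52.8%), against 39.4% (34.0 and 47.4%) in 360875 eligible bins without a peak of either list. It was 47.7% in the 1240 single-bin peaks of genes shared with mH2A1, 44.3% in the mH2A1.1-only single bins between genes and 50.9% in those at promoters. Inside genes and away from promoters, GC content was thus highest in the shared bins and lowest in unmarked bins. The number of peaks per 1000 eligible bins was 0.859 at a GC content of 30 to 35%, 5.21 at 35 to 40%, 24.2 at 40 to 45% and 38.3 at 45 to 50%. Above that it was lower again, with 31.3 at 50 to 55%, 24.2 at 55 to 60% and 22.7 at 60 to 65%. Only 12 peaks lay in bins under 30% GC, 5.22 per 1000 of such bins. ChIP-seq coverage varies with GC content, the input was part of the authors' peak calls, and the part of library preparation in this pattern was not tested.

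**Figure D1:**
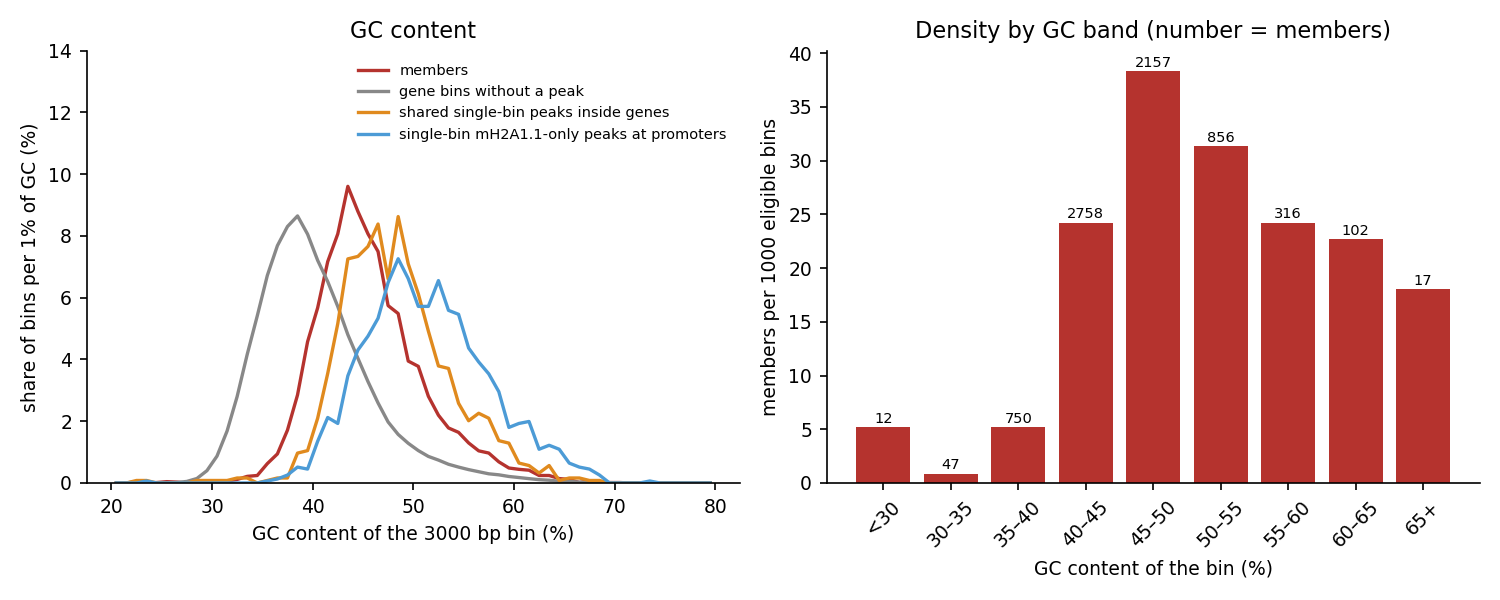
Left, the share of 3000 bp bins (y axis, % of the class per 1% of GC) by GC content (x axis, %) for the 7015 peaks (members), gene bins without a peak, single-bin gene peaks shared with mH2A1, and mH2A1.1-only single bins at promoters. Right, bars give members per 1000 eligible bins in each GC band, with the number of members above each bar. The members have a median of 44.9% against 39.4% without a peak, and their density is highest, 38.3, at 45 to 50% GC.

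The motifs of 8 families of transcription factors were counted on both strands as exact letters. AP-1 (TGACTCA), the site of FOS and JUN dimers, was present in 39.9% of the peaks (95% exact binomial interval 38.7 to 41.0%) and in 36.4% of bins without a peak, 45.4% of the shared bins and 41.6% of the bins between genes. The TEAD core (GGAATG) was in 80.9% of peaks and 80.4% of bins without a peak, and the RUNX core (TGTGGT) in 91.0 and 88.7%. The E-box (CACGTG), read by MYC and related factors, was in 30.2 and 22.7%, the ETS motif (CCGGAAGT) in 1.68 and 1.23%, the CTCF core (AGGGGGCGC) in 1.15 and 0.386%, and CRE (TGACGTCA) in 1.71 and 0.976%. The GATA motif (AGATAA) was in 80.2 and 89.3%. Most of these gaps were small once bins of similar GC were compared. At 40 to 45% GC, AP-1 was in 41.1% of peaks and 38.9% of bins without a peak, the E-box in 25.9 and 24.8%, GATA in 88.5 and 88.9% and CTCF in 0.471 and 0.292%. Of the 7015 peaks 692 held 2 or more AP-1 sites. None of the 6 peaks in the genes listed from the study, described with the RNA below, held an AP-1 site.

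A small class of the peaks sat on start sites inside the gene. A start site of any transcript of a protein-coding gene was present in 883 peaks (12.6%) and in 9.10% of eligible bins, that of a coding transcript in 448 (6.39%) and 3.56%, and that of a lncRNA in 190 (2.71%) and 1.54%. In the single-bin gene peaks shared with mH2A1 these shares were 14.4, 7.42 and 2.74%. At similar GC the gap for any transcript was small, with 8.63 and 7.17% at 40 to 45% GC, 12.7 and 11.1% at 45 to 50%, and 19.7 and 20.6% at 50 to 55%. The annotated start of a gene is that of its outermost transcript, so 162 of the peaks (2.31%, exact binomial interval 1.97 to 2.69%) held the start site of the canonical transcript of a gene, against 0.566% of eligible bins. The share was 1.94% in the shared peaks, and canonical starts were not compared at similar GC. CpG density, as the ratio of observed CpG to that expected from the C and G content, was over 0.6 in 133 peaks (1.90%), in 0.458% of eligible bins and in 2.10% of the shared peaks. Of the 133 peaks, 112 held a start site of a protein-coding gene's transcript and 84 that of a canonical transcript. Start sites were also frequent in other CpG-dense bins, with 1167 and 705 of 1908 eligible bins and 17 and 8 of 26 shared peaks. The hosts of the 133 were of the high WT class in 48.1% and silent in 2.26%, while of all 7015 peaks 33.3% were in high and 13.0% in silent hosts (classes defined below).

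Hosts of the peaks with most CpG are given here in order, down to ATF3. The most CpG dinucleotides, 269, were in a peak of MAMLD1 (chrX:150363001-150366000), followed by GSE1 with 265 (chr16:85611001-85614000), the deubiquitinase gene USP7 with 263 (chr16:8961001-8964000) and SPEN, a transcriptional repressor gene, with 258 (chr1:15846001-15849000). RUNX1, which encodes a runt domain transcription factor, had 256 in the peak chr21:34887001-34890000, whose midpoint is in a 5′ UTR 1116167 bp from the outermost start of the gene. HTRA1, a secreted serine protease gene, had 252 and NFATC1, of a calcium-regulated transcription factor, 241. SMAD3, the receptor-activated SMAD of TGF-beta signalling, had 240 in chr15:67065001-67068000, and ATF3, a stress-induced factor of the AP-1 family, 236 in chr1:212607001-212610000, both at the canonical start. The other peaks were CpG-poor, with a median ratio of 0.242 over all members and 36 CpG per peak, against 0.202 and 23 in bins without a peak and 0.585 and 112 in mH2A1.1-only bins at promoters.

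WT RNA levels, which played no part in the selection, were set beside the peaks next. The levels are FPKM, the reads of a gene scaled by its exon length and by the library's reads on protein-coding genes, averaged over both WT libraries. All genes of the count tables were put in 4 classes: silent (no WT count), low (up to 0.609 FPKM), medium (up to 7.21) and high (7.22 and over). A peak was present in 595 of 3181 silent genes with an eligible bin (18.7%, exact binomial interval 17.4 to 20.1%), 783 of 2932 low genes (26.7%), 1397 of 4768 medium genes (29.3%) and 1499 of 5239 high genes (28.6%, 27.4 to 29.9%). The share of high genes depends on the measure, since classes from reads scaled by gene length from start to end gave 18.8% of high and 34.5% of medium genes. Gene length weighs on these shares, because 72.6% of genes over 300 kb and 6.66% of those under 30 kb held a peak. Per 1000 eligible bins, the number of peaks was 11.8 in silent, 14.2 in low, 18.9 in medium and 22.1 in high genes, and 11.8, 14.7, 20.9 and 22.7 with the classes by gene length from start to end. In genes over 300 kb it was 7.99, 9.92, 15.6 and 19.3 in this order, and in genes of 100 to 300 kb 13.5, 18.8, 19.9 and 23.0. In genes under 30 kb the classes were close, with 16.4, 17.8, 19.8 and 17.4.

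The order by RNA level was also seen at equal GC content. At 40 to 45% GC the density was 16.7 in silent, 22.1 in low, 25.5 in medium and 30.9 in high hosts, and at 45 to 50% it was 29.6, 36.1, 41.8 and 46.1. In the 3 bands from 50 to 65% the low class lay below the silent class, and medium and high lay above both. Within a class, GC moved the density more than the RNA class did within a band, from 7.06 at 35 to 40% to 46.1 at 45 to 50% in high hosts. Genes are not independent replicates and the peaks are from 1 library, so no test was made.

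**Figure D2:**
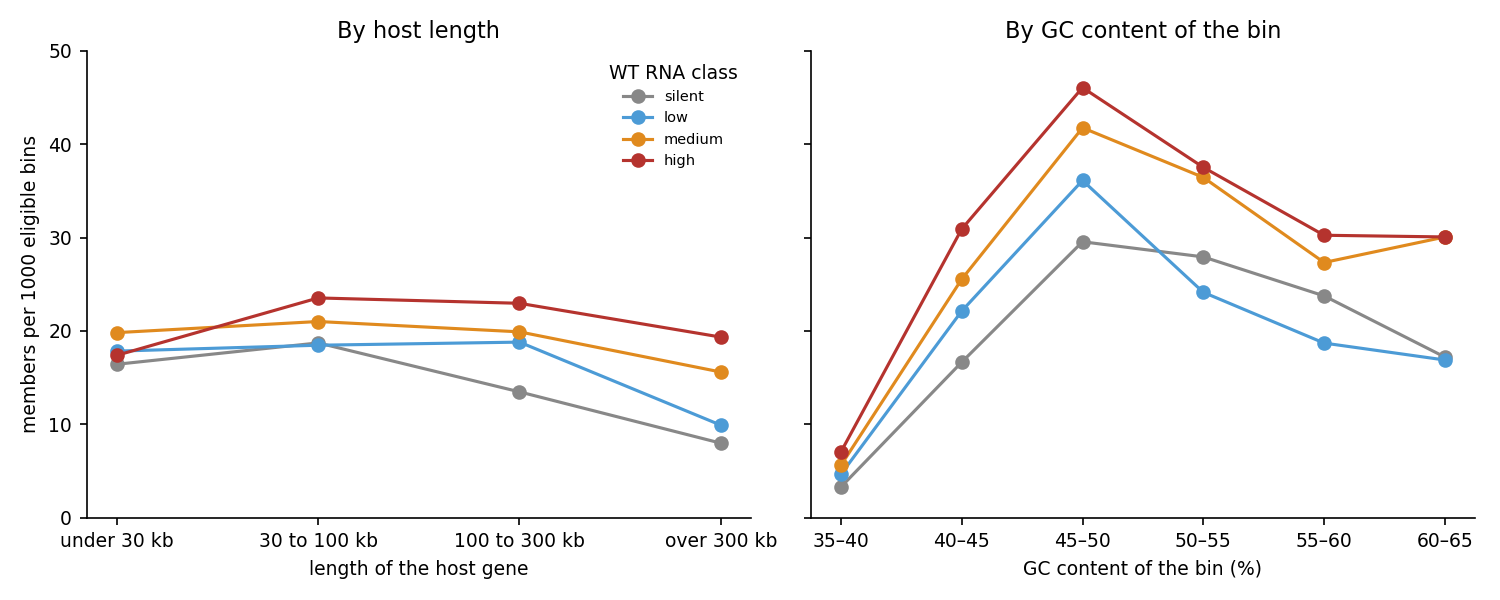
Members per 1000 eligible bins (y axis) for hosts of the 4 WT RNA classes, by length of the host gene (left) and by GC content of the bin in % (right); points are values over all genes or bins of a class, with no replicates. In genes over 300 kb the density goes from 7.99 in silent to 19.3 in high hosts, and at 45 to 50% GC from 29.6 to 46.1.

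Hosts mostly held a single peak: 2968 of 4492 (66.1%) had 1, 843 had 2, 364 had 3 and 174 had 5 or more. Of all hosts, 18.1% also had an mH2A1.1-only peak and 16.7% a peak shared with mH2A1 within 1 kb of their own TSS, and 65.2% had neither. Among genes of 100 to 300 kb, 19.2% of hosts and 14.7% of genes without a member had an mH2A1.1-only peak at the TSS, and 17.8 and 12.0% a shared one. In genes under 30 kb the order was the opposite, with 11.5% of hosts and 15.4% of other genes for mH2A1.1-only peaks and 10.2 and 32.9% for shared ones. Shared peaks were also less frequent at hosts in genes of 30 to 100 kb (19.4 and 22.6%) and over all lengths, where 27.2% of other genes had one. Such short genes leave few bins at 9000 bp or more from a peak at the TSS, and the part of this spacing was not tested.

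The genes with most peaks were long and of several RNA classes. KAZN, which encodes the desmosome-associated protein kazrin, held 19 in 407 eligible bins over 1225252 bp, all in introns, from 28708 to 1003708 bp after its TSS. Their GC content was between 37.9 and 50.4%, and 5 of the 19 abutted an mH2A1 peak. Those up to 607708 bp from the outermost annotated start lay in no intron of the canonical transcript, as did several peaks of RUNX1 and ASIC2. RUNX1 (15.8 FPKM), CAMTA1, a calmodulin-binding transcription activator gene (1.25 FPKM), PALM2AKAP2 (0.00640 FPKM) and ASIC2, a neuronal proton-gated channel gene (no WT count), held 12 each. FHOD3, a formin of actin assembly, held 11, and LTBP1, which tethers latent TGF-beta to the matrix, C4orf50 and PTPRT, a receptor phosphatase gene with no WT count, 10 each. PTPRM, an adhesion receptor phosphatase gene (27.9 FPKM), was 1 of 9 genes with 9. Silent and highly expressed genes thus stand side by side in this list. PALM2AKAP2 spans other annotated genes, whose shared reads the counting leaves out, and C4orf50 is not among the genes counted.

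**Figure D3:**
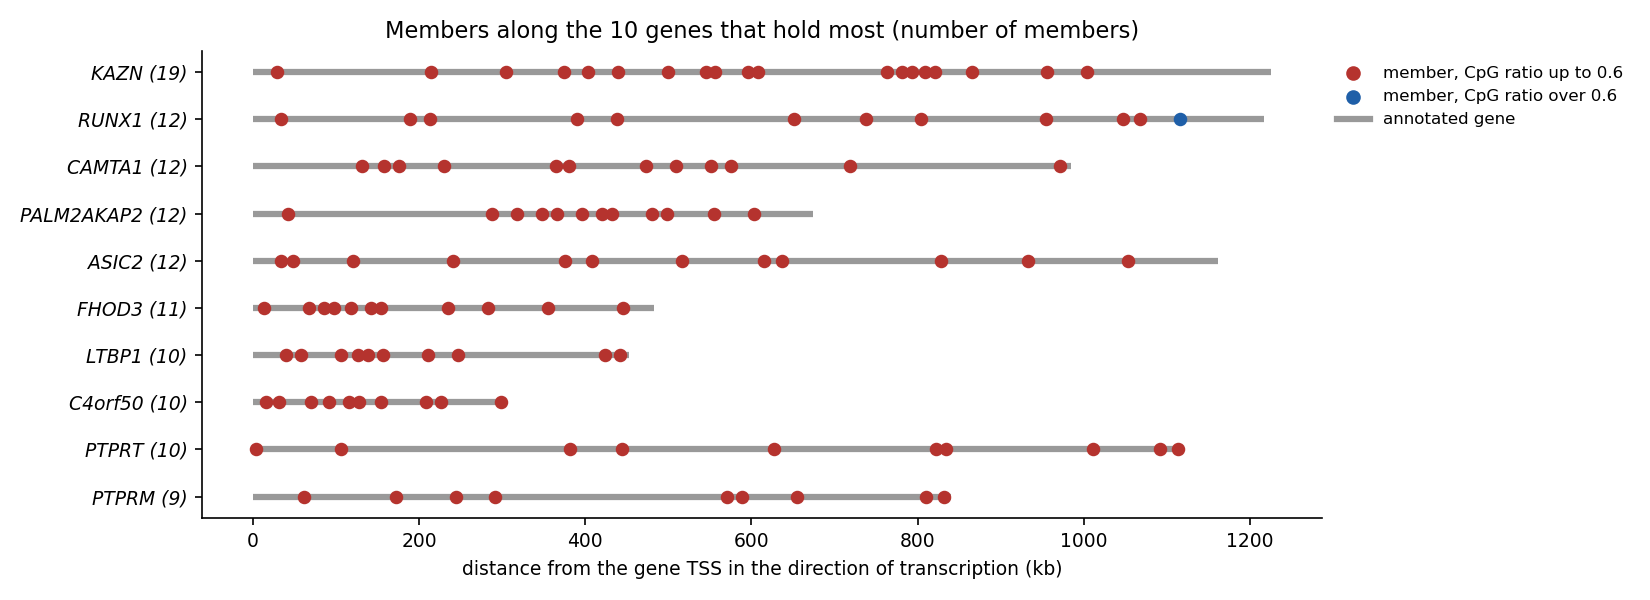
Positions of the peaks (points) along 10 genes that hold most (the last, PTPRM, is 1 of 9 genes tied at 9), as distance from the TSS in kb in the direction of transcription (x axis), with the annotated gene as a grey line and the number of peaks after each symbol. Points are spread over the genes, and the only CpG-dense peak (CpG ratio over 0.6) is that of RUNX1 at 1116167 bp.

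Pathway lists relevant to this invasive line differed in how densely they were marked. Peaks per 1000 eligible bins were 35.4 in the TGF-beta and SMAD list (13 of 22 genes hosted 28 peaks), 28.3 in mesenchymal and basal genes (10 of 28, 23 peaks), 28.0 in receptor tyrosine kinases and MAPK (14 of 36, 34 peaks), 26.4 in integrins and focal adhesion (12 of 31, 34 peaks) and 26.1 in the actin cytoskeleton (21 of 32, 50 peaks). AP-1 factors had 21.1 (3 of 17, 6 peaks), luminal identity genes 18.7 (5 of 23, 8 peaks) and the Hippo and TEAD list 18.2 (11 of 26, 19 peaks). A list of 19 genes from the study's text and browser views had 13.0 (4 of 19, 6 peaks). Neuronal adhesion and synapse genes, which are long, had 5.24, with 24 of 34 genes hosting 78 peaks. The density over all genes was 16.9, and over all genes of the high class 22.1. Of that class were 28 of 32 actin, 24 of 31 focal adhesion and 23 of 36 receptor and MAPK genes. So were 14 of 22 TGF-beta and 15 of 28 mesenchymal and basal genes, and 21 of 26 in the less dense Hippo list. The part of RNA level in the denser lists was not tested. In the neuronal list 24 of 34 genes were silent and none was of the high class, and the median GC of its eligible bins was 37.1%, against 39.9 to 42.0% in the other lists, so GC and RNA level moved with this difference and their part was not tested. The genes with most peaks were LTBP1 (10), SMAD3 (4) and the co-receptor gene TGFBR3 (3) for TGF-beta, and the talin gene TLN2 (6), LPP and the tensin gene TNS3 (5 each) for focal adhesion. IGF1R had 6 and EGFR 5, the latter from 41483 to 167483 bp after its TSS. The silent genes NTM and OPCML, of neuronal adhesion molecules, held 9 and 8, and ESR1 held 3 with no RNA counted.

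Knockdown of mH2A1.1 served to ask whether RNA of the host genes moved. Of the 4492 hosts, 218 are not in the count tables, 286 others are on chromosomes 21, 22 and X, 1073 had too few reads and 2915 were tested. In edgeR's quasi-likelihood test across 10963 genes no host was called lower or higher in KD, with thresholds of 0.1 for the adjusted p and of 1.5 for the fold change, and neither was any other gene (0% of all genes in either direction, smallest adjusted p 0.176). At an unadjusted p under 0.05 with the same fold change, 280 hosts (9.61%) were lower and 172 (5.90%) higher, against 9.37 and 9.45% of all genes tested. DESeq2, the tool of the study, called 127 of 2267 hosts lower (5.60%) and 73 higher (3.22%), against 5.73 and 5.52% of all 7765 genes with an adjusted p. The share of lower calls among hosts was near that of all genes and the share of higher calls below it. These shares varied with gene length. Without a peak, DESeq2 called 7.89% of genes under 30 kb higher, and with 1 peak 6.10%. With 0, 1, 2 and 3 or more peaks it called 3.70, 3.37, 5.56 and 7.14% higher in genes of 30 to 100 kb. In genes of 100 to 300 kb these were 0.977, 2.58, 2.23 and 1.51%, and lower calls 8.01, 7.51, 3.57 and 4.52%. The part of gene length was not tested. Hosts had a median exon GC of 45.8% and all tested genes 47.1%. Offsets were also fitted for GC content and length of the summed exons, and not for gene length from start to end. With these GC and length offsets in edgeR, 44 hosts (1.51%) were called lower and 51 (1.75%) higher, against 1.38 and 1.68% of all genes. Over all gene lengths, the gap for higher calls stayed in other readings with offsets. It was 4.46% of hosts and 5.94% of all genes at an unadjusted p under 0.05 in the same fit, and 3.79 and 5.63% in DESeq2. Lower calls there were 2.81% of hosts and 3.07% of all genes, and 1.51 and 1.54% in DESeq2. Within length classes the order was mixed. With 0, 1, 2 and 3 or more peaks, DESeq2 with offsets called 4.24, 4.46, 2.70 and 7.14% higher in genes of 30 to 100 kb. In genes of 100 to 300 kb these were 3.40, 2.49, 2.62 and 4.93%. Under 30 kb they were 7.79% without a peak and 5.05% with 1. The median log2 fold change of hosts was −0.03 and that of all genes 0.01. Calls among hosts and over all genes depended on which library was left out, most of all on the KD libraries. Without KD replicate 1 the median log2 fold change in edgeR was −0.11 in hosts and −0.01 over all genes. Where a condition is left with a single library, that library is taken to vary like the other condition. Counts of calls from such fits are therefore not given.

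The median change moved with the number of peaks in genes of 30 kb or more, and less so with the GC and length offsets. In genes of 100 to 300 kb the median log2 fold change was −0.24 without a peak (677 genes), −0.14 with 1, −0.04 with 2 and 0.02 with 3 or more (252 genes). These medians depended on the KD libraries, being −0.09, −0.06, 0.0013 and −0.01 without KD replicate 2 and −0.45, −0.31, −0.16 and −0.04 without KD replicate 1. Median exon GC went from 41.3 to 47.3% over the same 4 groups. With the GC and length offsets the 4 medians were 0.08, 0.10, 0.08 and 0.05. Genes over 300 kb had −0.21, −0.18, −0.05 and −0.02 before and 0.12, 0.08, 0.15 and 0.10 after. In genes under 30 kb the medians with 0, 1 and 2 peaks were 0.16, 0.14 and 0.13 before the offsets. The offsets take exon GC and summed exon length together, so their parts cannot be told apart. Gene length from start to end, which defines the length classes, is not in them.

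**Figure D4:**
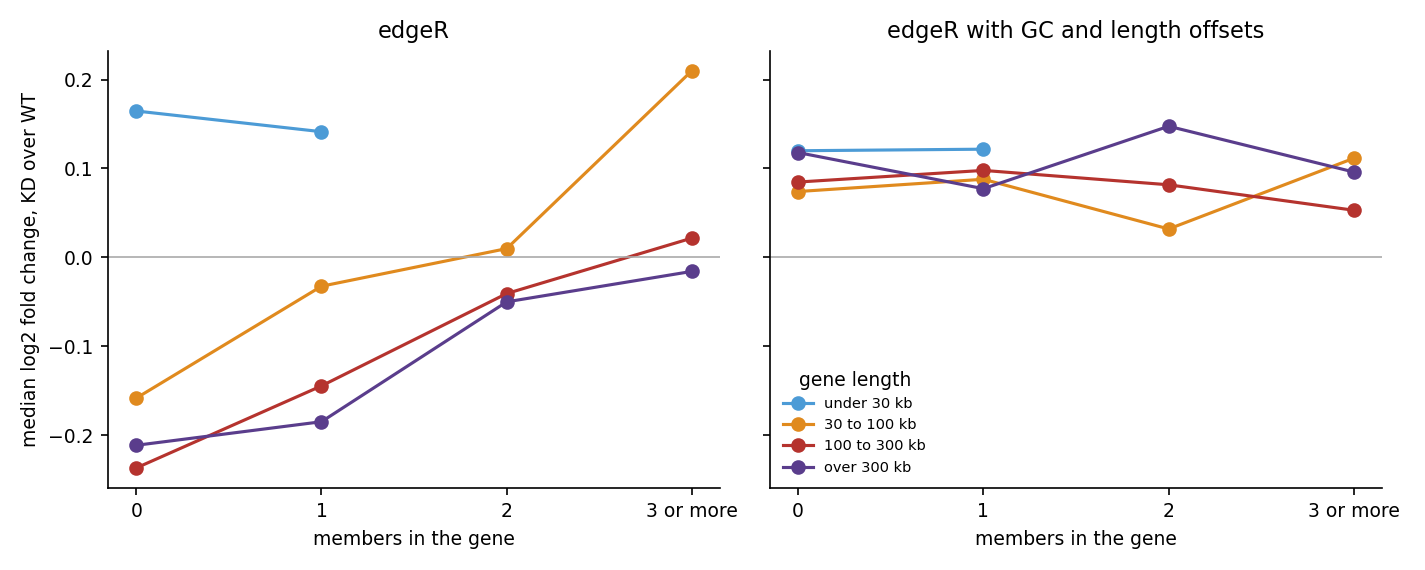
Median log2 fold change of RNA, KD over WT (y axis), by the number of peaks in the gene (x axis) within 4 classes of gene length, for groups of at least 20 genes, in edgeR (left) and with offsets for exon GC and summed exon length (right). For genes of 100 to 300 kb the median goes from −0.24 to 0.02 on the left and from 0.08 to 0.05 on the right.

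Of the 19 genes listed from the study, 4 held a peak, and they were selected by the study on the same libraries, so their direction is no independent evidence. STK38L, a kinase gene of the Hippo-related NDR family, held 1 intronic peak (chr12:27270001-27273000) and had 49.8 and 40.2 CPM in WT and 20.6 and 10.4 in KD, a log2 fold change of −1.45 ± 0.31 (SE, adjusted p = 0.183, edgeR). RBL1, the pocket protein p107 gene, held 1 in intron 6 (chr20:37065001-37068000), with 148 and 146 CPM in WT and 92.6 and 68.5 in KD. CDC25B, a phosphatase gene of mitotic entry, held 1 (chr20:3792001-3795000), with 164 and 175 CPM in WT and 273 and 310 in KD. FRAS1, an extracellular matrix gene, held 3, at 154177, 238177 and 250177 bp from its TSS, with 94.2 and 98.4 CPM in WT and 143 and 154 in KD. In edgeR the adjusted p was 0.194 for each of RBL1, CDC25B and FRAS1. DESeq2 called STK38L (adjusted p = 0.00494), RBL1 (0.0319) and CDC25B (0.0325) but not FRAS1 (0.102), and edgeR with the offsets called STK38L and FRAS1 (0.0633 each). With the offsets the log2 fold change was −0.84 for STK38L, −0.37 for RBL1 and 0.46 for CDC25B, against −0.86 for RBL1 and 0.78 for CDC25B without them.

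Among expressed hosts, the 5 lower and the 5 higher in KD with the smallest unadjusted p are given next. ATF3, whose only peak covers its CpG-dense canonical start, had 136 and 131 CPM in WT and 38.5 and 43.5 in KD, a log2 fold change of −1.71 ± 0.18 (SE). MAPK6, the atypical kinase ERK3 gene with 3 peaks, for which the study also lists qPCR primers, had 148 and 140 CPM in WT and 53.3 and 36.9 in KD. PAFAH1B2, a catalytic subunit gene of PAF acetylhydrolase, had 327 and 311 against 117 and 98.8 CPM. COPS4, of the COP9 signalosome, had 45.4 and 48.7 against 17.4 and 17.5 CPM, and SSX2IP, a centrosomal and junction protein gene, 71.7 and 63.3 against 24.0 and 15.6 CPM. These 3 held 1 peak each.

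On the higher side, MGLL, the monoacylglycerol lipase gene, held the most peaks of these 5, 8 in all, of which 1 covered a CpG-dense canonical start 228919 bp inside the gene. It had 39.6 and 44.1 CPM in WT and 75.4 and 91.7 in KD, a log2 fold change of 0.99 ± 0.20 (SE). ADAM19, a membrane metalloprotease gene, had 90.6 and 101 CPM in WT and 197 and 228 in KD. TUFT1 had 77.4 and 73.0 against 145 and 156 CPM, HECW2, a ubiquitin ligase gene, 11.8 and 9.86 against 24.9 and 23.2, and OSGIN1, an oxidative stress gene, 10.5 and 10.7 against 21.7 and 25.5. The edgeR adjusted p was 0.176 for each of the 10 genes, lower and higher, and DESeq2 called all 10, with adjusted p from 8.04e-08 for ATF3 to 0.0426 for OSGIN1. They were picked for their p-values, so these are descriptions of the extremes.

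**Figure D5:**
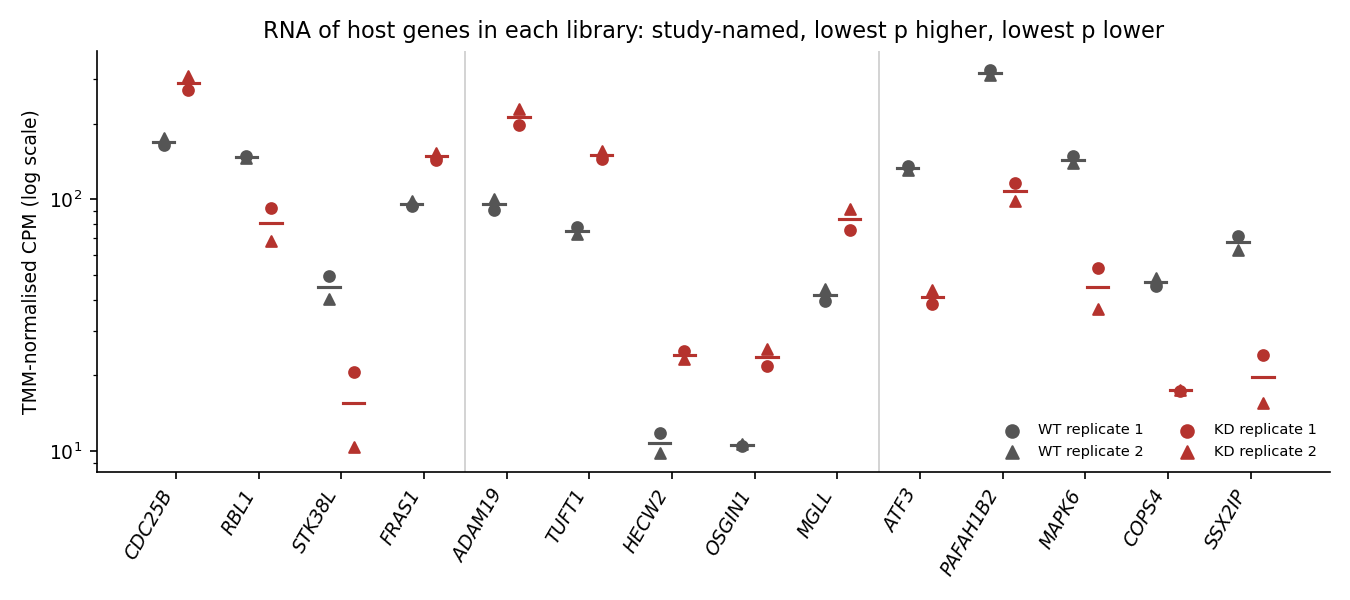
TMM-normalised CPM (y axis, log scale) of 14 host genes in each library: WT in grey and KD in red, replicate 1 as circles and replicate 2 as triangles, with a line at the mean of each condition. From left to right stand the 4 genes listed from the study and the 5 higher and 5 lower in KD with the smallest p. For ATF3 the values are 136 and 131 in WT and 38.5 and 43.5 in KD.

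Several of the hosts with many peaks had close values in WT and KD. KAZN had 25.0 and 23.5 CPM in WT and 23.6 and 24.6 in KD, a log2 fold change of −0.02 ± 0.20 (SE). SMAD3 had 253 and 246 against 240 and 258 CPM. FHOD3 had 73.3 and 82.6 against 75.0 and 84.6 CPM, and PTPRM 284 and 273 against 260 and 314. LTBP1 had 61.8 and 61.1 CPM in WT and 83.3 and 91.2 in KD (log2 fold change 0.50 ± 0.18, adjusted p = 0.194, edgeR). EGFR had 658 and 662 against 595 and 548 CPM, and CAV2, of caveolae, 289 and 261 against 219 and 188.

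The hosts with the highest WT CPM included genes of large cytoskeletal proteins. PLEC, the plectin gene with 1 peak, had 3120 and 3389 CPM in WT and 4764 and 9059 in KD, and DST, the dystonin gene with 6, had 2416 and 2205 against 2567 and 1825. DYNC1H1, the dynein heavy chain gene with 3, had 2138 and 2226 against 2854 and 3453 CPM. KRT8, a keratin gene with 1 peak and with pseudogenes that may share its reads, had 496 and 555 against 862 and 1364 CPM (log2 fold change 1.08 ± 0.25, adjusted p = 0.194, edgeR, and 0.00516 in DESeq2). MYH9, also among the most abundant, is on chromosome 22 and had 22483 and 19721 counts in the WT libraries against 17093 and 0 in KD. On chromosomes 21 and X, RUNX1 had in the same order 2428, 1835, 1346 and 0 counts and MSN, the moesin gene with 5 peaks, 10433, 8659, 6775 and 0, so no change is given for them.

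Few hosts of the pathway lists were called. Of the hosts tested in each list, edgeR called 0, as in all genes. DESeq2 called 1 of 17 actin genes lower and 1 higher, 1 of 11 focal adhesion genes higher, 2 of 10 mesenchymal and basal genes higher, 1 of 2 AP-1 factors (ATF3) lower and 1 luminal gene (KRT8) higher. It called none of 12 TGF-beta, 11 Hippo or 9 receptor and MAPK hosts. Over all genes it called 5.73% lower and 5.52% higher. The median log2 fold change in edgeR lay between −0.15 in the Hippo list and 0.19 in the actin list for the 6 lists with 10 or more hosts tested, against 0.01 over all genes.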

How the data were processed

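ChIP-seq peak lists and RNA-seq read counts of MDA-MB-231 cells were used. For the peaks, the authors aligned reads to GRCh38 with STAR 2.5.1, removed reads of low mapping quality, and called each antibody's single library against its input with enrichR of normR, with parameters set per dataset. The list gives positions only, since every score in it is 0, so no stricter score threshold could be tried. For the counts, the authors aligned RNA reads with the same tool, removed low-quality reads and duplicates, and deposited whole-number read counts per gene from htseq-count. The input library and the 4 promoter capture Hi-C samples were not analysed here.

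Peaks were placed on GENCODE release 44 and on a fixed grid of 3000 bp bins of GRCh38, and base composition and motifs were read from that genome. A motif match is a description of letters, and the study's own analysis used the peaks common to both antibodies, which the peaks described here exclude. Of 23167 gene IDs in the count tables, 23061 matched the annotation, and unmatched IDs held 0.120 to 0.176% of counts. Library totals were 2309549 to 9794674, so low genes of KD replicate 2 are the least precise. Genes of chromosomes 21, 22 and X were left out of the test. KD and WT (2 libraries each) were compared with edgeR 4.0.16 (quasi-likelihood, TMM, filterByExpr, Benjamini-Hochberg adjusted p) in R 4.3.3 and, as an alternative, with DESeq2 1.42.0, after tests on simulated data. Thresholds for a call were 0.1 (adjusted p) and 1.5 (fold change). Intervals of shares are exact binomial intervals and cover counting error only.

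Host genes were named by rule: those listed from the study's text and browser views, the 10 with most peaks, the 5 lower and 5 higher in KD with the smallest p among genes of mean log2 CPM of at least 3, the 3 of each pathway list with most peaks, and the 5 with the highest WT level. Windows with AP-1 sites were taken from hosts with most peaks, and some windows, genes and lists are not reported here, while the CpG-dense windows and peaks and the change by number of peaks were chosen after their values were seen. The peaks and gene lists were chosen with earlier results of these data known. Alternatives were other selection rules, annotation levels, windows, tools, normalizations, filters, GC and length offsets, the replicate block and each library left out.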

Additional observations from a re-analysis of the deposited data

How the results depend on the processing

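With an mH2A1 peak within 3000 or 9000 bp counted as shared, a start site of every transcript, a 3 kb zone or the whole peak inside the gene, the selection held 5893, 4978, 5771, 6789 and 6896 peaks in 3973, 3445, 3725, 4315 and 4405 genes, and 6811 in 4376 with the canonical start (chosen after seeing the data). Median GC moved from 44.9 to 44.5, 44.2 and 44.5% under the first 3, and the intronic share to 94.0% with every transcript's start site, 92.7% with whole peaks inside and 94.6% on canonical transcripts only. AP-1 sites were in 16.1% of the central 1000 bp windows. With FPKM by gene length from start to end, 18.8% of high genes held a peak. That share was 28.5 to 28.7% with either WT library left out.

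Lower and higher calls among hosts, 0 and 0 in edgeR, became 127 and 73 in DESeq2, 298 and 154 with no filter on low counts, and 44 and 51 with GC and length offsets. In this order, lower calls were 5.60, 8.54 and 1.51% of hosts and 5.73, 7.40 and 1.38% of all genes. Higher calls were 3.22, 4.41 and 1.75% of hosts and 5.52, 6.80 and 1.68% of all genes. Settings chosen after seeing the data gave 151 and 86 (DESeq2 on all genes) and 35 and 88 (DESeq2 with the offsets). The first are 5.76 and 3.28% of hosts, against 5.78 and 4.43% of all genes. The second are 1.51 and 3.79% of hosts, against 1.54 and 5.63% of all genes. Leaving out 1 library gave 0 to 677 lower and 0 to 390 higher. They stayed at 0 with DESeq2 size factors in edgeR, all genes in the fit, no fold threshold and every other selection. The cause was not tested. With 2 libraries per condition, 1 library can decide a call.

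The replicate block gave 301 and 168 calls among hosts, and 77 and 130 with the offsets. The former are 10.3 and 5.76% of hosts, against 10.4 and 9.77% of all genes. The latter are 2.64 and 4.46% of hosts, against 2.73 and 5.94% of all genes. Same-numbered libraries deviated together with r = 0.252 across genes in only 2 pairs, so the numbers are not shown to pair the libraries.

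The median log2 fold change of hosts, −0.03, was −0.076 (DESeq2 on all genes), −0.086 (all genes in the fit), −0.073 (no filter), −0.078 (mH2A1 within 9000 bp), 0.085 (offsets), 0.087 (offsets with the block) and 0.11 (DESeq2 with offsets), and −0.11 to −0.0069 with a library left out. The offsets moved the median of all genes to 0.09 in edgeR and 0.14 in DESeq2.

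Log2 fold changes of some named hosts changed sign with the offsets, given in order for DESeq2, edgeR and edgeR with the block. LPP, −0.20 without offsets, had 0.16, 0.18 and 0.18 (−0.57 to 0.082 with a library left out). DOCK1, −0.03, had 0.081, 0.078 and 0.078 (−0.05 to −0.02). ARHGAP26, −0.08, had 0.0096, 0.0014 and 0.0018 (−0.15 to −0.02). WWTR1, −0.27, had 0.076, 0.094 and 0.086 (−0.33 to −0.21), and WWC2, −0.24, had 0.085, 0.092 and 0.087 (−0.28 to −0.21). LOXL2, 0.07, had −0.17, −0.21 and −0.22 (−0.28 to 0.35), and DST, −0.07, had 0.27, 0.28 and 0.28 (−0.35 to 0.16). FHOD3, 0.03, had −0.00092 with edgeR's offsets (−0.056 to 0.12). SMAD3, −0.0015, had 0.0024 with DESeq2 size factors (−0.050 to 0.041). With a library left out, KAZN, −0.02, ranged from −0.062 to 0.028 and PTPRM, 0.04, from −0.10 to 0.16. Of 42 named hosts tested, 15 met both call thresholds in DESeq2, 17 with the block and 14 with the offsets in edgeR. In this order, 5.73, 10.4 and 1.38% of all genes were called lower and 5.52, 9.77 and 1.68% higher. Some of the 42 were named for small p or were selected by the study on the same libraries. Their counts therefore do not measure how often hosts changed.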

Other observations

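Some of the peaks covered miRNA hairpins, short RNA precursors that lie in introns or between exons of many genes. A RefSeq hairpin (GRCh38.p14) was present in 19 of the 7015 peaks, or 2.71 per 1000, against 796 of 416846 eligible bins, or 1.91 per 1000. Among them were MIR6090 in ETS1, an ETS family transcription factor gene (peak chr11:128520001-128523000), MIR2116 in MYO1E, a class I myosin gene (chr15:59169001-59172000), MIR629 in TLE3, a corepressor gene (chr15:70077001-70080000), MIR1260B in MAML2, a Notch coactivator gene (chr11:96339001-96342000), and MIR448 in the serotonin receptor gene HTR2C (chrX:114822001-114825000). These 5 were chosen after their positions were seen. No level of a miRNA was measured, and no test of the 2 densities was made.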
